A study of Mus musculus with 8 samples.

Results

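The genes described are 36 mouse genes of glucose breakdown and of the response to low oxygen. They comprise 17 glycolytic enzymes, 4 glucose and lactate transporters, 2 pyruvate dehydrogenase kinases, 3 genes of oxygen sensing and 10 other targets of the hypoxia-inducible factor (HIF). Members were found by name, as every probe set whose only gene symbol in the platform's annotation was on the list. This gave 73 of 45101 probe sets, for 33 of the 36 genes and of the 18194 genes measured in all. Gpi1, Eno1 and Bnip3l had no such probe set and were not analysed here. Of the 33, 31 passed the filter on dim genes and were tested. Gapdh was measured only through the manufacturer's control probe sets.

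Transcripts were measured on 8 Affymetrix mouse genome arrays of mouse embryonic stem (ES) cells, 2 arrays in each of 4 groups. The groups were Rbp2-/- cells after 6 days without leukemia inhibitory factor (LIF), Rbp2f/f cells after 6 days without LIF, Rbp2-/- cells with LIF, and Rbp2f/f cells with LIF. LIF is the cytokine that holds mouse ES cells in the undifferentiated state. RBP2 was taken to be retinoblastoma-binding protein 2, an enzyme that removes methyl groups from lysine 4 of histone H3 and is encoded by Kdm5a. By convention f/f marks floxed, still intact alleles, though the labels do not spell this out. The labels give neither strain nor clone, and do not say how the deletion was made. They call the arrays of a group biological replicates without naming cultures, so p-values reflect only how far these samples varied, which may in part be technical.

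Glycolysis turns glucose into pyruvate in the cytosol. Lactate dehydrogenase then reduces pyruvate to lactate, which leaves the cell through monocarboxylate transporters, or the pyruvate dehydrogenase complex feeds it into the mitochondria. At normal oxygen, prolyl hydroxylases of the EGLN family mark the HIF alpha subunits for destruction. At low oxygen the subunits persist, pair with ARNT and bind a short core sequence, A or G followed by CGTG, near genes for glycolysis, glucose uptake, vessel growth and mitochondrial turnover. HIF1A is thus controlled largely as a protein, which arrays do not measure. Undifferentiated ES cells are known for a high rate of glycolysis.

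The promoters of 5 members that recur below are shown because they differ in that core. Each window runs from 250 bases before to 50 bases after an annotated transcript start, 5′ to 3′ on the gene's strand, in the RefSeq annotation of GRCm38.p6. Capitals mark every ACGTG or GCGTG on either strand, so that CACGT and CACGC are the same motifs read from the other strand, and CACGTG holds ACGTG on both strands. The windows are Egln3 at chr12:54203825-54204124 on the minus strand, Slc16a3 at chr11:120948817-120949116 on the plus strand, Bnip3 at chr7:138909457-138909756 on the minus strand, Pdk1 at chr2:71872974-71873273 on the plus strand and Tpi1 at chr6:124814109-124814408 on the minus strand.
Egln3: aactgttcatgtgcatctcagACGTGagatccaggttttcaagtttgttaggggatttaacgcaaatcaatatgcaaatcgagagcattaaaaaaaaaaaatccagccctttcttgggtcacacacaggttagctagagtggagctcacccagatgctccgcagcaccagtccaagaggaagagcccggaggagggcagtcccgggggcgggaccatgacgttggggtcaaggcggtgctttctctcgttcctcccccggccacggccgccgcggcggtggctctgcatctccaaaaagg
Slc16a3: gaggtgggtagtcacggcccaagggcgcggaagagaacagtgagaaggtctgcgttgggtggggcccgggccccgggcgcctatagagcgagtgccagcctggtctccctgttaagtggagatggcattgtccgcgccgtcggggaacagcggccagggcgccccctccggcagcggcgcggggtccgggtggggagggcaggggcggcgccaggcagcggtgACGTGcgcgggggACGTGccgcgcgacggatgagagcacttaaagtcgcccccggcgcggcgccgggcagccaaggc
Bnip3: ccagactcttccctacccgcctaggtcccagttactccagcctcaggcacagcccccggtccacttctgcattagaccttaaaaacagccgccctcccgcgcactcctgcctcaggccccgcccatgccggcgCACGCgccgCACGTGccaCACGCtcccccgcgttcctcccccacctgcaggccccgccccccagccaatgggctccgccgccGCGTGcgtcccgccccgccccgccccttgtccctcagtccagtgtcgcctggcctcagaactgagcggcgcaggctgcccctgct
Pdk1: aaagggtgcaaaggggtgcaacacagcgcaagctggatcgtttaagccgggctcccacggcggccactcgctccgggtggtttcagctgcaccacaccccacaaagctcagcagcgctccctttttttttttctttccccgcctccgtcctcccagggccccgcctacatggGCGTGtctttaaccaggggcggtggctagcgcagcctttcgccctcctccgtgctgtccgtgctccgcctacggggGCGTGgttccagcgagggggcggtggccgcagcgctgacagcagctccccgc
Tpi1: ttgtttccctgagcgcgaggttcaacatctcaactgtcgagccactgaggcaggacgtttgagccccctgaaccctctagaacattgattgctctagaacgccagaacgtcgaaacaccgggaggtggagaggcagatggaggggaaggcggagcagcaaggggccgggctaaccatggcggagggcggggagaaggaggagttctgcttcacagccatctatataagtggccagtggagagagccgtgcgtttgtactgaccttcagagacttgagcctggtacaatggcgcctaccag
Egln3 had 1 match to ACGTG, Slc16a3 had 2 and Bnip3 had 2 together with 3 matches to GCGTG. This Pdk1 window had 2 matches to GCGTG, and the Tpi1 window had none of either. A window was at hand for 33 of the 36 genes, 46 windows in all. ACGTG on either strand was present in 56.5% of them, against 25.8% of the 11362 windows of all tested genes, and GCGTG in 58.7% against 51.1%. The median number of CG pairs was 20.5 in member windows and 21.0 in windows of tested genes. Many members are on the list because they are known HIF targets, so the share is a description. A match is not a binding site, and no binding was measured.

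Values below are intensities in arbitrary units after quantile normalization of the 8 arrays, and differences are log2 differences of intensity plus 16, with standard errors from limma. Intensities of different genes cannot be set against each other, since probes differ in brightness. Kdm5a read 95.0 and 66.8 in Rbp2-/- without LIF, against 209.6 and 224.9 in Rbp2f/f cells of that condition. With LIF it read 34.1 and 43.5 in Rbp2-/- and 134.1 and 167.7 in Rbp2f/f. The groups did not overlap, and the differences were -1.28 ± 0.22 without LIF (limma adjusted p = 0.114) and -1.60 ± 0.22 with LIF (limma adjusted p = 0.0707). The position of its probes against the excised part of the gene is not given in the sources used here. The summed level of 12 pluripotency markers was 3774.2 to 4659.9 without LIF and 19447.9 to 22642 with LIF, and 11 of the 12, Pou5f1 and Nanog among them, fell on withdrawal in both genotypes while Tbx3 rose.

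A few arrays stood apart. Replicate 2 of Rbp2-/- with LIF was dim as deposited, with a trimmed mean of 77.5 against 110.5 to 128.4 on the others. Replicate 1 of Rbp2f/f with LIF had a 3′ to 5′ signal ratio of 1.12 for Gapdh, a sign of RNA or labelling quality, against 0.79 to 0.86 on the others. On that array 30 probe sets lay more than 5-fold below every other array, against 0 to 4 on each other array. This count covers the 27061 probe sets left after a filter on dim ones. It takes only those at 50 or more on all the other arrays. Of those 30, 2 belong to Slc2a3. Across genes, replicate 2 of Rbp2-/- without LIF had a correlation of 0.972 with its own replicate and of 0.979 with an array of the other genotype, replicate 1 of Rbp2f/f without LIF.

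After 6 days without LIF, transcripts of a glucose transporter (Slc2a1), a lactate transporter (Slc16a1) and a pyruvate dehydrogenase kinase (Pdk1) changed in both genotypes. In Rbp2-/- cells 6 members rose (Slc2a1, Slc16a1, Slc16a3, Tpi1, P4ha1, Ddit4) and Pdk1 fell. In Rbp2f/f cells 4 rose (Slc2a1, Slc2a3, Slc16a1, Ddit4) and 2 fell (Pdk1, Hk2). The counts are 7 of 31 in Rbp2-/- at an adjusted p under 0.05, where 15.5% of all tested genes were called, and 6 of 31 in Rbp2f/f, where 27.2% were. Among all genes 7.28% were called higher and 8.24% lower in Rbp2-/-, and 14.0% higher and 13.2% lower in Rbp2f/f. Without overlap between groups, 17 of 31 members were higher and 2 lower in Rbp2-/-, against 28.9% and 29.8% of all tested genes, and 7 were higher and 10 lower in Rbp2f/f, against 33.3% and 35.3%. The member count called in Rbp2f/f is below the share of all genes, and the median member difference was 0.15 in Rbp2-/- and -0.13 in Rbp2f/f. The Rbp2f/f median had no stable sign: it was 0.003 without replicate 2 of Rbp2f/f without LIF and 0.05, with 18 of 31 members positive, without replicate 2 of Rbp2f/f with LIF. The Rbp2-/- median was 0.41 without replicate 2 of Rbp2-/- without LIF, 0.35 without replicate 1 of Rbp2-/- with LIF and 0.38 with the mean over probe sets. On the values as deposited the counts were 13 higher and 0 lower in Rbp2-/- and 2 higher and 2 lower in Rbp2f/f, with all genes shifted by a median of 0.39 and 0.07. After median centring they were 5 higher and 1 lower in Rbp2-/- and 1 higher and 4 lower in Rbp2f/f. The 2 genotypes' withdrawal contrasts use different arrays but share 1 estimate of the spread. Called the same way in both were 4 of 31 members (Slc2a1, Slc16a1, Pdk1, Ddit4). The share of all tested genes called the same way in both was not computed, so this count is a description.

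Markers of cell type changed on withdrawal too. Of 10 tested markers of differentiated cells, such as Gata6, Gata4 and Foxa2, 5 were called higher in Rbp2-/- and 10 in Rbp2f/f. Of all tested genes, 7.28% and 14.0% were called higher. All 10 markers had a positive difference in each genotype, and 0 were called in the difference of the 2 withdrawal effects. In bulk samples, fewer cells of a type and less RNA per cell cannot be told apart. The sum of 12 fibroblast markers, which cells of differentiating cultures also express, was 4498.1 and 1746 in Rbp2-/- without LIF, 2072.3 and 1861.4 in Rbp2f/f cells lacking LIF, 988.2 and 1044.2 in Rbp2-/- cells given LIF, and 687.2 and 438.1 in Rbp2f/f cells given LIF. Of its 10 tested genes 4 were called higher in Rbp2-/- and 8 in Rbp2f/f, and 9 had a positive difference in each genotype. In the difference of the 2 withdrawal effects 0 were called. On no array did any of the 12 read 0. The part of these cells in the member changes was not tested.

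**Figure D1:**
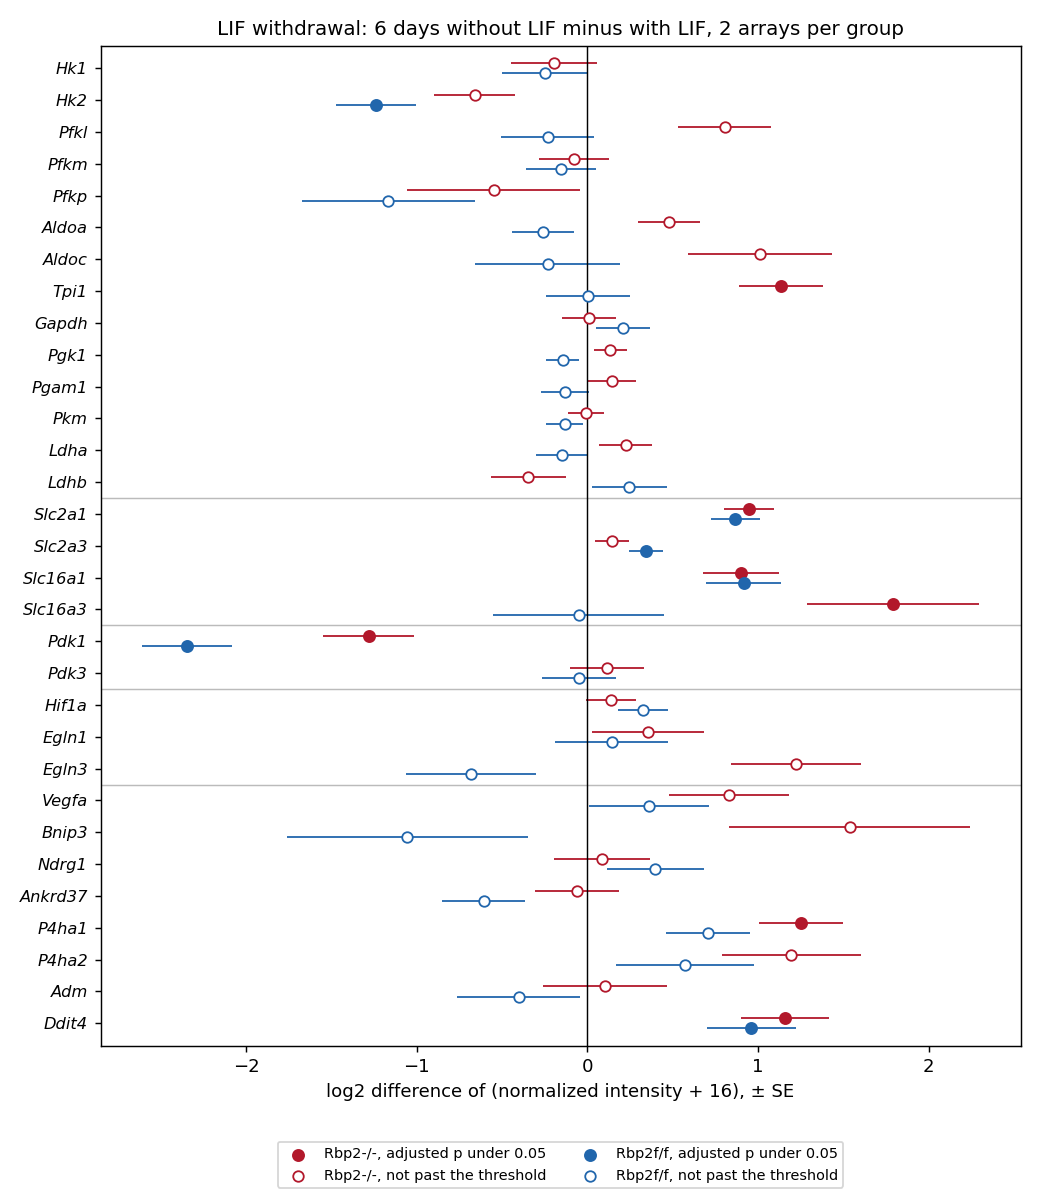
Log2 differences on LIF withdrawal (6 days without LIF minus with LIF) for the 31 tested members in Rbp2-/- (red, upper) and Rbp2f/f (blue, lower), with standard errors; filled circles passed an adjusted p under 0.05 and grey lines part the groups of genes by role. Slc2a1, Slc16a1 and Ddit4 lie right of 0 and Pdk1 left of 0 in both genotypes.

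Glucose enters ES cells mainly through the facilitative transporters GLUT1, encoded by Slc2a1, and GLUT3, encoded by Slc2a3. Slc2a1 read 5763.8 and 5067.8 in Rbp2-/- without LIF, against 3049 and 2566.7 in Rbp2-/- with LIF. In Rbp2f/f it read 5378.4 and 5672.7 without LIF, against 2699.4 and 3385.4 with LIF. All 4 arrays without LIF were above all 4 with LIF. The rise was 0.95 ± 0.15 in Rbp2-/- (limma adjusted p = 0.00333) and 0.87 ± 0.15 in Rbp2f/f (limma adjusted p = 0.00374), mean ratios of 1.93 and 1.82. The call held in all 19 alternative settings in each genotype. All 3 Slc2a1 probe sets were called higher in both.

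Slc2a3 read 7472.4 and 7738.2 in Rbp2-/- without LIF, against 6488.8 and 7302.7 in Rbp2-/- with LIF. In Rbp2f/f it read 8155.5 and 8336.2 without LIF, against 6183.6 and 6825.7 with LIF. On this brightest probe set the groups did not overlap in either genotype, and the shift was small. It was 0.34 ± 0.10 in Rbp2f/f (limma adjusted p = 0.0331) and 0.14 ± 0.10 in Rbp2-/- (limma adjusted p = 0.370). The Rbp2f/f call was lost in 11 of 19 alternatives, among them the values as deposited (0.21) and median centring (0.04). It was also lost without any of the arrays of either group without LIF or replicate 1 of Rbp2f/f with LIF, with adjusted p between 0.0559 and 0.177. On that last array another pair of Slc2a3 probe sets read 46.2 and 35.8, against 901.3 to 1756.4 and 477.8 to 1117.6 on the other 7 arrays. That pair stood at 2.37 ± 0.98 and 1.58 ± 0.90 in Rbp2f/f and was not called. The remaining probe set was called higher in Rbp2f/f (0.57 ± 0.14, limma adjusted p = 0.0278 over all probe sets). In Rbp2-/- it was not (0.19 ± 0.14, limma adjusted p = 0.487).

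Lactate crosses the membrane through MCT1, encoded by Slc16a1, and MCT4, encoded by Slc16a3, the carrier best known for lactate export from glycolytic cells and a HIF target. Slc16a1 read 1389.1 and 1475.3 in Rbp2-/- without LIF, against 851 and 677.7 in Rbp2-/- with LIF. In Rbp2f/f it read 1929.1 and 1411.4 without LIF, against 723.5 and 1040.6 with LIF. It rose by nearly the same amount in both, 0.90 ± 0.22 in Rbp2-/- (limma adjusted p = 0.0247) and 0.91 ± 0.22 in Rbp2f/f (limma adjusted p = 0.0155). The Rbp2-/- call was lost without either array of Rbp2-/- without LIF (adjusted p = 0.11 and 0.105) or replicate 2 with LIF (0.0889). The Rbp2f/f call was lost without replicate 1 without LIF (0.116) or replicate 1 with LIF (0.0938), on the values as deposited (0.0623) and after median centring (0.0588). With the mean over its probe sets it was lost in Rbp2-/- (0.175) and in Rbp2f/f (0.0684).

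Slc16a3 read 2222.6 and 1005.6 in Rbp2-/- without LIF, against 617.3 and 285.8 in Rbp2-/- with LIF. In Rbp2f/f the values were 578.6 and 400.9 without LIF, against 316.5 and 784.9 with LIF. The groups overlapped in Rbp2f/f (difference -0.05 ± 0.50, limma adjusted p = 0.954) and did not overlap in Rbp2-/-, where it rose by 1.79 ± 0.50 (limma adjusted p = 0.0413). That call was lost without replicate 1 of Rbp2-/- without LIF (1.23, adjusted p = 0.26), without replicate 2 of Rbp2-/- with LIF (1.26, adjusted p = 0.169) or without either array of Rbp2f/f without LIF (0.0579 and 0.058), and after median centring (0.0559), and it held in 10 of 19 alternatives.

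Pyruvate dehydrogenase kinases switch off the pyruvate dehydrogenase complex and so hold pyruvate in the cytosol. Pdk1, a HIF target, read 351.2 and 212.2 in Rbp2-/- without LIF, against 837.6 and 565.8 in Rbp2-/- with LIF. Rbp2f/f cells gave 180.6 and 172.5 without LIF, against 872.7 and 1058.6 with LIF. Every array without LIF lay below every array with LIF. Pdk1 fell by 1.28 on the log2 scale in Rbp2-/- (SE 0.26, limma adjusted p = 0.0124). In Rbp2f/f cells it fell by 2.34 (SE 0.26, limma adjusted p = 0.000641), the largest difference of any member there. The Rbp2f/f call held in all 19 alternatives. In Rbp2-/- it was lost without replicate 2 without LIF (-0.95, adjusted p = 0.0705), without replicate 1 with LIF (adjusted p = 0.0693) and on the values as deposited (-0.90, adjusted p = 0.0671). Pdk3 read 323.4 and 283.2 in Rbp2-/- without LIF, against 314.5 and 246.4 with LIF, while Rbp2f/f cells gave 276 and 239.3 without LIF, against 226.1 and 314.1 with LIF, and did not pass the test (limma adjusted p = 0.765 and 0.888).

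**Figure D2:**
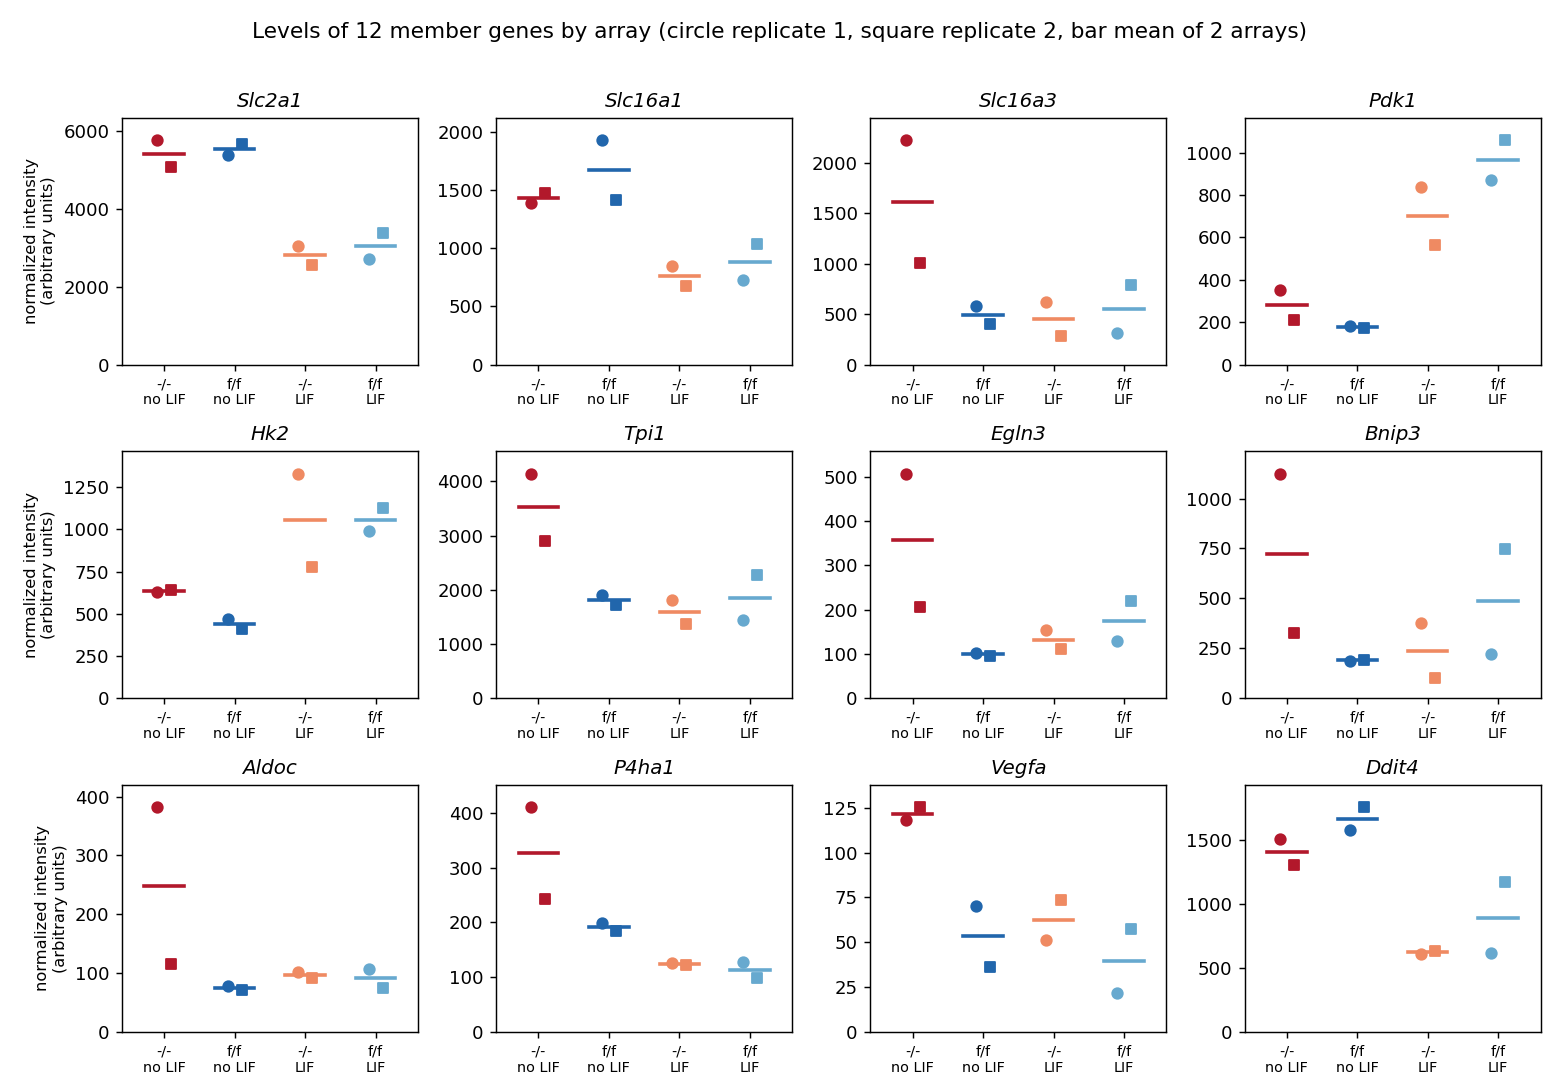
Normalized intensity (arbitrary units, linear axes from 0) of 12 members on each array, with circles for replicate 1, squares for replicate 2 and bars for the mean of 2 arrays, in the order Rbp2-/- without LIF, Rbp2f/f without LIF, Rbp2-/- with LIF and Rbp2f/f with LIF. Slc2a1 is high on all 4 arrays without LIF, Pdk1 is low on them, and in Egln3, Bnip3 and Aldoc the circle of Rbp2-/- without LIF stands above the other 7 arrays.

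Of the 14 tested glycolytic enzymes, 1 was called in each genotype, against 15.5% of all tested genes in Rbp2-/- and 27.2% in Rbp2f/f. Hexokinase 2, which phosphorylates glucose as it enters, read 630.9 and 643.1 in Rbp2-/- without LIF, against 1328.9 and 777.9 in Rbp2-/- with LIF. In Rbp2f/f Hk2 read 467.6 and 409.7 without LIF, against 988.6 and 1124.3 with LIF. It fell by 1.24 in Rbp2f/f (SE 0.23, limma adjusted p = 0.006), a call lost without replicate 2 of Rbp2f/f without LIF (-1.15, adjusted p = 0.0557), and was -0.66 ± 0.23 in Rbp2-/- (limma adjusted p = 0.089). Triosephosphate isomerase, which interconverts the 2 triose phosphates, read 4140.8 and 2898.8 in Rbp2-/- without LIF, against 1814.1 and 1361.1 in Rbp2-/- with LIF. In Rbp2f/f Tpi1 read 1905.5 and 1720.8 without LIF, against 1440.7 and 2273.4 with LIF, which overlap. Tpi1 rose by 1.13 ± 0.25 in Rbp2-/- (limma adjusted p = 0.0157), on all 3 of its probe sets, against 0.001 ± 0.247 in Rbp2f/f (limma adjusted p = 0.999). Its call was lost without replicate 1 of Rbp2-/- without LIF (0.88, adjusted p = 0.126) and without replicate 2 of Rbp2-/- with LIF (0.92, adjusted p = 0.0623). Over the 14 enzymes the median difference was 0.07 in Rbp2-/-, with 8 positive, and -0.15 in Rbp2f/f, with 3 positive. On their brightest probe sets Pgk1, Pgam1 and Pkm, abundant enzymes of the lower pathway, stayed within 0.15 of 0 in both genotypes. They were not called, except that Pgk1 and Pkm were called lower in Rbp2f/f after median centring. A dimmer Pgk1 probe set read 707.7 and 487.4 in Rbp2-/- without LIF, against 354.4 and 441.5 in Rbp2-/- cells given LIF. In Rbp2f/f it read 402 and 344.6 without LIF, against 693.5 and 986.6 in Rbp2f/f cells given LIF. It was called lower in Rbp2f/f (-1.12 ± 0.24, limma adjusted p = 0.0157 over all probe sets), where the brightest was not. In Rbp2-/- it stood at 0.55 ± 0.24 and the remaining Pgk1 probe set at 0.44 ± 0.19. Neither was called there (limma adjusted p = 0.209 and 0.197).

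Among the other HIF targets, 2 of 8 tested rose in Rbp2-/- and 1 of 8 in Rbp2f/f. Of all tested genes, 7.28% were called higher in Rbp2-/- and 14.0% in Rbp2f/f. Ddit4, known as REDD1 and an inhibitor of mTORC1 that many stresses induce, read 1511.1 and 1305.6 in Rbp2-/- without LIF, against 607.1 and 635 in Rbp2-/- with LIF. In Rbp2f/f it read 1582 and 1758.3 without LIF, against 613.4 and 1175.6 with LIF. It rose by 1.16 ± 0.26 in Rbp2-/- (limma adjusted p = 0.0175) and by 0.96 ± 0.26 in Rbp2f/f (limma adjusted p = 0.0241). In Rbp2f/f the call was lost without replicate 1 without LIF (adjusted p = 0.0769), replicate 2 without LIF (0.14) or replicate 1 with LIF (0.0959, difference 0.50), as deposited (0.0503) and after median centring (0.0788). In Rbp2-/- it was lost without replicate 1 without LIF (0.12), replicate 2 without LIF (0.0519) or replicate 1 with LIF (0.0701). P4ha1 encodes a catalytic subunit of the prolyl hydroxylase that modifies collagen. It read 410.7 and 243.1 in Rbp2-/- without LIF, against 125.2 and 122.7 in Rbp2-/- with LIF. In Rbp2f/f cells P4ha1 read 199.1 and 185.2 without LIF, against 127.1 and 97.8 with LIF. P4ha1 rose by 1.25 ± 0.25 in Rbp2-/- (limma adjusted p = 0.0105), a call lost without replicate 1 of Rbp2-/- without LIF (0.89, adjusted p = 0.0763) or with the mean over its probe sets (0.0538), and differed by 0.71 ± 0.25 in Rbp2f/f without passing the test (limma adjusted p = 0.0615), though it did so in 4 of 19 alternatives, among them the values as deposited (0.86, adjusted p = 0.0418). Vegfa, the vessel growth factor, was not called on its brightest probe set (0.83 ± 0.35 in Rbp2-/-, limma adjusted p = 0.142). Its other probe set read 144.3 and 93.6 in Rbp2-/- without LIF, against 20.3 and 31.4 with LIF, and was called higher there (1.68 ± 0.36, limma adjusted p = 0.0235 over all probe sets).

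The genotypes were then compared without LIF. In Rbp2-/- cells 24 of 31 members were higher on average and 7 lower, with a median difference of 0.28 against -0.01 over all tested genes. Because members were chosen with earlier results of these data known, such counts are a description. None passed the adjusted threshold in limma, and 0% of all tested genes did. At an unadjusted p under 0.05 the members numbered 9 of 31, and all genes 1553, or 14.2%. Both Rbp2-/- arrays lay above both Rbp2f/f arrays for 19 of 31 members, against 26.1% of all tested genes, and below them for 5 of 31, against 29.1%. Both Rbp2-/- arrays lay above all the other 6 arrays of the series for 6 of 31 members (Aldoc, Tpi1, Ldha, Slc16a3, Vegfa, P4ha1), against 7.39% of genes, and below them for 0 of 31, against 8.23%. The smallest adjusted p was 0.152, for Egln3.

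Egln3 encodes the HIF prolyl hydroxylase PHD3, itself a HIF target. It read 507.1 and 207 in Rbp2-/- without LIF, against 103.1 and 94.7 in Rbp2f/f without LIF. With LIF it read 153.3 and 111.2 in Rbp2-/- and 128.1 and 219.3 in Rbp2f/f. Without LIF the groups did not overlap and the difference was 1.57 ± 0.38, a mean ratio of 3.61, while replicate 2 of Rbp2-/- without LIF lay below replicate 2 of Rbp2f/f with LIF. A second Egln3 probe set read 186.1 and 97.7 in Rbp2-/- without LIF, against 45.4 and 34.6 in Rbp2f/f without LIF.

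Bnip3, a mitochondrial protein that promotes mitophagy under low oxygen, read 1124.3 and 324.3 in Rbp2-/- without LIF, against 188.1 and 190.9 in Rbp2f/f without LIF. With LIF it read 375.1 and 101.9 in Rbp2-/- and 222.8 and 748.1 in Rbp2f/f. The difference without LIF was 1.60 ± 0.71 (limma adjusted p = 0.350). Replicate 1 minus replicate 2 was 1.74 in Rbp2-/- without LIF, -0.02 in Rbp2f/f without LIF, and with LIF 1.73 in Rbp2-/- cells and -1.68 in Rbp2f/f cells, so replicates of 3 groups lay as far apart as the genotypes. Slc16a3, given above, differed by 1.60 ± 0.50 (limma adjusted p = 0.209). Vegfa read 118.3 and 125.3 in Rbp2-/- without LIF, against 70.3 and 36.2 in Rbp2f/f without LIF, a difference of 1.04 ± 0.35 (limma adjusted p = 0.237). With LIF its 4 arrays lay at 51.2 and 73.5 in Rbp2-/- and 21.5 and 57.1 in Rbp2f/f, near the dim end of the members. P4ha2, the sister subunit of P4ha1, read 328.4 and 113.2 in Rbp2-/- without LIF, against 114.2 and 100.2 in Rbp2f/f without LIF, which overlap.

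Among the enzymes, 12 of 14 were higher on average in Rbp2-/- cells without LIF, 11 of them without overlap, where 26.1% of all tested genes were higher without overlap, and Hk1 and Ldhb were lower. Aldoc, an aldolase isoform better known from brain, read 381.8 and 114.5 in Rbp2-/- without LIF, against 77.6 and 70.4 in Rbp2f/f without LIF (1.34 ± 0.42, limma adjusted p = 0.212). Tpi1 differed by 0.93 ± 0.25 (limma adjusted p = 0.168) at the levels given above. Pfkp, the platelet form of phosphofructokinase, read 262.9 and 169.2 in Rbp2-/- without LIF, against 105.4 and 85.2 in Rbp2f/f without LIF (1.04 ± 0.51, limma adjusted p = 0.381). The pair of lactate dehydrogenase subunits had differences of opposite sign, neither past the threshold. Ldha, the subunit that favours lactate formation, read 7043.2 and 6463.2 in Rbp2-/- without LIF, against 5473.8 and 4453.7 in Rbp2f/f without LIF (0.45 ± 0.15, limma adjusted p = 0.239). Ldhb, the subunit that favours pyruvate formation, read 819.5 and 1085.3 in Rbp2-/- without LIF, against 1160.4 and 1475.1 in Rbp2f/f without LIF (-0.47 ± 0.22, limma adjusted p = 0.372). Pgk1, the phosphoglycerate kinase, read 8150.3 and 7178.7 in Rbp2-/- without LIF, against 6626.3 and 6660.9 in Rbp2f/f without LIF (0.20 ± 0.10, limma adjusted p = 0.374). Its dimmer probe sets differed by 0.47 ± 0.19 and 0.64 ± 0.24, neither called (limma adjusted p = 0.419 and 0.401 over all probe sets).

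Aldoa, Ankrd37, Egln1 and Ndrg1 were not called either. Aldoa, the main aldolase of most tissues, read 4991.2 and 3744.5 in Rbp2-/- without LIF, against 3696.8 and 3413.1 in Rbp2f/f without LIF (0.28 ± 0.18, limma adjusted p = 0.51). Ankrd37, a HIF target, read 60.4 and 40.8 in Rbp2-/- without LIF, against 27.8 and 32.6 in Rbp2f/f without LIF (0.51 ± 0.25, limma adjusted p = 0.375). Egln1 encodes PHD2, the main HIF prolyl hydroxylase at normal oxygen. It overlapped, with 279.6 and 138.1 in Rbp2-/- without LIF, against 212 and 153.2 in Rbp2f/f without LIF. Ndrg1, a stress-responsive gene, also overlapped, with 192.1 and 117.6 in Rbp2-/- without LIF, against 116.2 and 122.3 in Rbp2f/f without LIF.

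Hif1a was lower on both Rbp2-/- arrays without LIF, short of the threshold. It read 755.4 and 795.1 in Rbp2-/- without LIF, against 977.2 and 1076.3 in Rbp2f/f without LIF, a difference of -0.40 ± 0.15 (limma adjusted p = 0.270). With LIF it read 685.6 and 720 in Rbp2-/- and 793 and 840.2 in Rbp2f/f (-0.21 ± 0.15). A dimmer Hif1a probe set differed by 0.41 without LIF, with the opposite sign. Ddit4 was also lower on both Rbp2-/- arrays without LIF (-0.24 ± 0.26, limma adjusted p = 0.705), and Slc2a1 overlapped (-0.03 ± 0.14, limma adjusted p = 0.943).

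**Figure D3:**
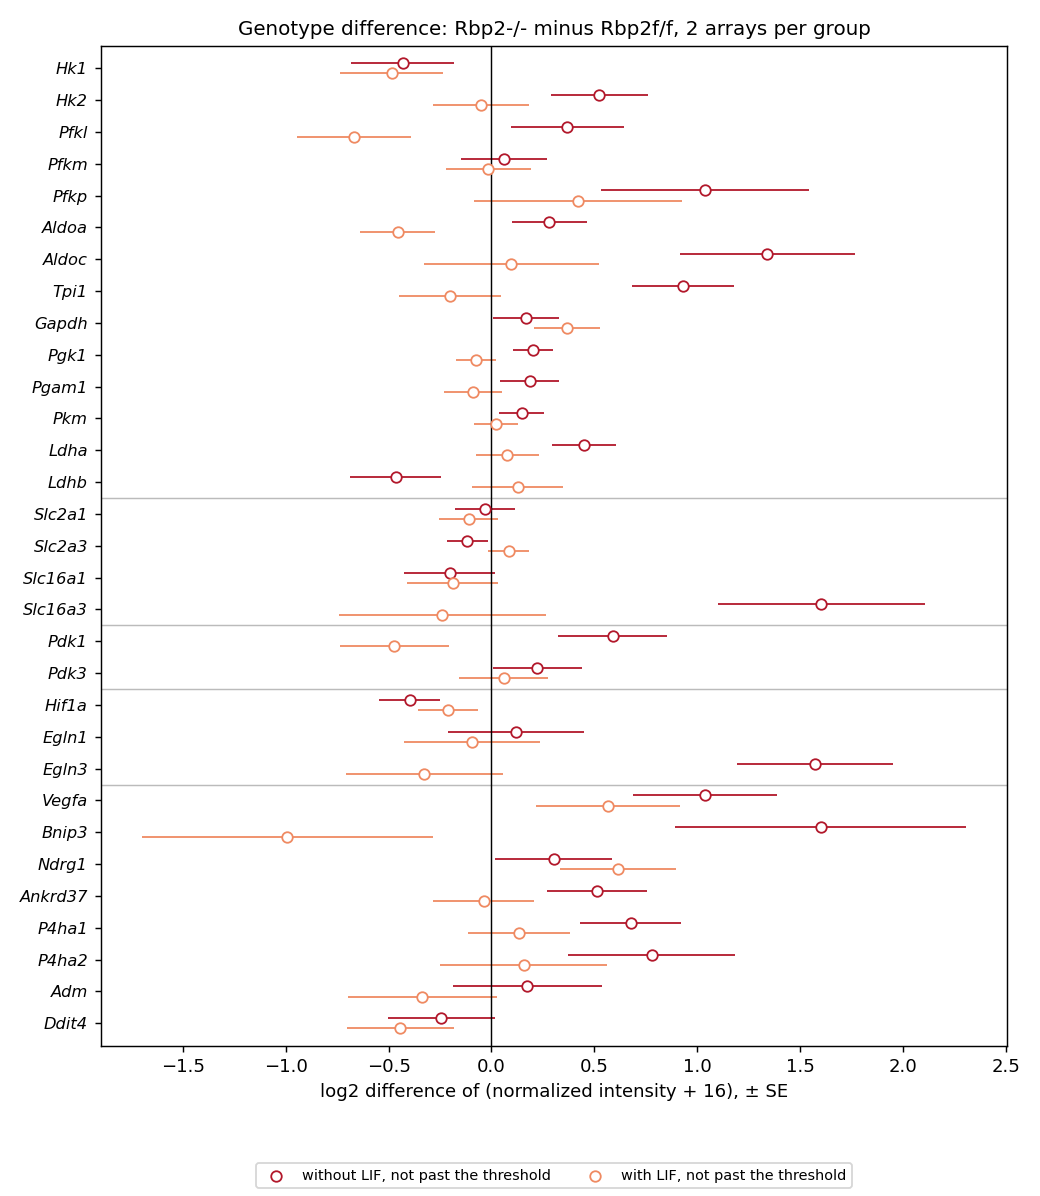
Log2 differences between genotypes (Rbp2-/- minus Rbp2f/f) for the 31 tested members without LIF (red, upper) and with LIF (orange, lower), with standard errors; open circles did not pass an adjusted p under 0.05, which holds for all of them. Without LIF 24 of 31 lie right of 0, and with LIF 12 of 31.

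The size of the genotype difference without LIF depended on 1 array. Replicate 1 of Rbp2-/- without LIF was the highest of all 8 arrays for 15 of 31 members, a count not made over all tested genes. Across genes this array correlated at 0.955 and 0.928 with the Rbp2f/f arrays without LIF, against 0.979 and 0.963 for its replicate. It was above its own replicate for 24 of 31 members and for 5595 of all 10916 tested genes. The median gap was 0.41 over the members, against 0.01 over all tested genes. Over the other HIF targets that gap had a median of 0.67 and over the enzymes 0.15. Without that array the median genotype difference of the members was 0.13, and without replicate 2 of the group it was 0.51. Each of those fits leaves 1 array in Rbp2-/- without LIF, so only the size of the difference is given. With arrays weighted by their agreement, Egln3 and Tpi1 were called higher, among 98 higher and 127 lower of all genes. On the same array the fibroblast marker sum was the highest of all (4498.1, against 1746 on its replicate), with 2072.3 and 1861.4 in Rbp2f/f without LIF. The sum of 12 markers of differentiated cells was 15082.2 on this array against 16767.4 on its replicate, with 16848.5 and 19369.6 in Rbp2f/f without LIF. Bright genes dominate such sums, and single markers differed in direction. Col1a1 read 2766.2 on this array and 638.7 on its replicate, while Thy1 read 23.8 and 36.1. Of the markers of differentiated cells, Krt8 read 4583.3 and 5473.8 and Krt18 6029.6 and 7027.5, while Hand1 read 3480.1 and 1724.9. The part of these other cells in the member levels of this array was not tested.

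**Figure D4:**
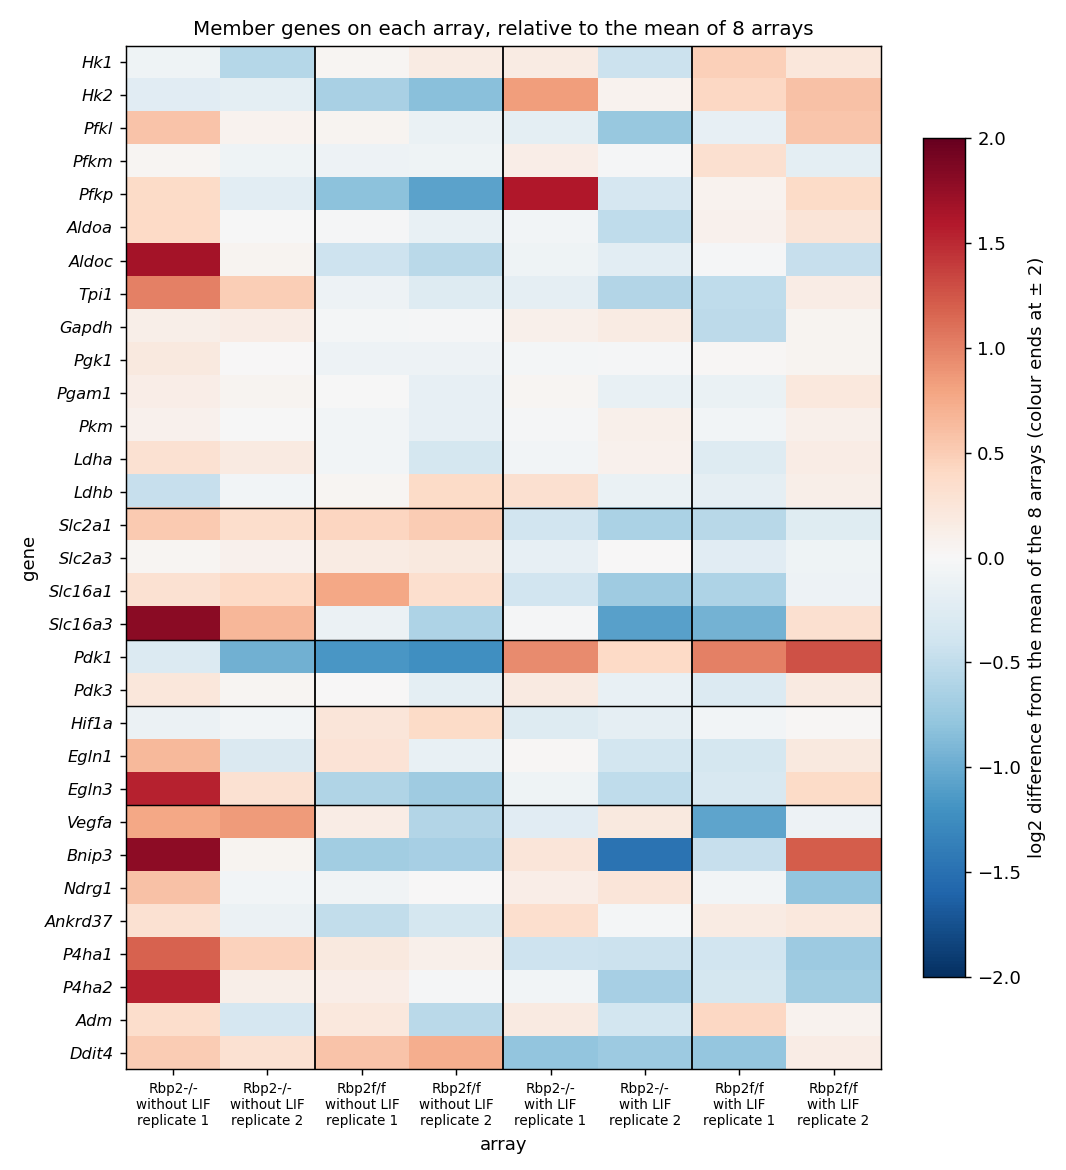
Log2 difference of each tested member (rows, ordered by role) on each array (columns) from its mean over the 8 arrays, with red above and blue below that mean and the colour ending at 2. Replicate 1 of Rbp2-/- without LIF is red for most members, its replicate is paler, and Pdk1 is blue on all 4 arrays without LIF.

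The genotypes were also compared with LIF, where the direction over the members depended on single arrays. In Rbp2-/- cells 12 of 31 members were higher on average and 19 lower, with a median of -0.07 against -0.01 over all genes. Without replicate 2 of Rbp2-/- with LIF, the dim array, 18 of 31 were higher (median 0.01), and likewise 18 of 31 without replicate 2 of Rbp2f/f with LIF (median 0.04). None passed in limma, where 0% of all genes did, and at an unadjusted p under 0.05 the count was 3 of 31 members, with 1431 genes, or 13.1%. Both Rbp2-/- arrays lay above both Rbp2f/f arrays for 2 members (Gapdh and Ndrg1), against 18.6% of genes, and below them for 6, against 21.5%. Those 6 were Hk1, Pfkl, Aldoa, Pgk1, Pdk1 and Hif1a. Pfkl, the liver form of phosphofructokinase, read 1249.3 and 846.1 in Rbp2-/- with LIF, against 1276.8 and 2114.6 in Rbp2f/f with LIF. Replicates were far apart here too, since replicate 1 exceeded replicate 2 for 22 of 31 members in Rbp2-/- with LIF and for 7 of 31 in Rbp2f/f with LIF. Among all 10916 tested genes it did so for 5406 in Rbp2-/- with LIF and for 5999 in Rbp2f/f with LIF. On the values as deposited the member median was -0.36, beside -0.28 over all genes.

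Whether withdrawal acted differently in the genotypes was tested as the difference of the 2 withdrawal effects, Rbp2-/- minus Rbp2f/f. It was positive for 25 of 31 members, with a median of 0.37 against 0.01 over all genes. This count too is a description, since members were chosen with earlier results of these data known. None passed in limma, where 0% of genes did, and at an unadjusted p under 0.05 the count was 7 of 31 members, with 1214 genes, or 11.1%. The smallest adjusted p was 0.358, for Egln3 at 1.90 ± 0.54. Bnip3 stood at 2.59 ± 1.00 (limma adjusted p = 0.423), Slc16a3 at 1.84 ± 0.71 (limma adjusted p = 0.423), Tpi1 at 1.13 ± 0.35 (limma adjusted p = 0.387), Pdk1 at 1.06 ± 0.37 (limma adjusted p = 0.391) and Pfkl at 1.04 ± 0.39 (limma adjusted p = 0.418). Slc2a1 (0.08 ± 0.21) and Slc16a1 (-0.01 ± 0.31) lay near 0. A difference in withdrawal response between genotypes was therefore not shown for any member. Signs were opposite in the genotypes for 12 of 31 members, a share not computed over all tested genes. Some of these differences were near 0, such as Pdk3 at 0.11 in Rbp2-/- and -0.05 in Rbp2f/f. This contrast uses the same arrays as the genotype comparisons, so it adds no separate samples. Without replicate 1 of Rbp2-/- without LIF its median was 0.19.

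Other genes of the pathways, from lists that leave the members out, were counted in the same way. For comparison, 7.28% of all tested genes were called higher and 8.24% lower on withdrawal in Rbp2-/-, and 14.0% higher and 13.2% lower in Rbp2f/f. Of 18 tested other glycolysis and pyruvate genes, 2 rose and 1 fell on withdrawal in each genotype. Eno3, the muscle enolase, rose by 1.12 ± 0.19 in Rbp2-/- (limma adjusted p = 0.00548) and by 0.95 ± 0.19 in Rbp2f/f (limma adjusted p = 0.00759). Mpc1, a subunit of the mitochondrial pyruvate carrier, fell by 1.24 in Rbp2-/- (limma adjusted p = 0.00763). Of 30 tested other HIF pathway genes, 3 rose and 5 fell in Rbp2-/-, and 5 rose and 5 fell in Rbp2f/f. Cited2, which competes with HIF1A for its coactivators, rose by 1.16 ± 0.23 in Rbp2-/- and by 1.49 ± 0.23 in Rbp2f/f. Angptl4, a secreted lipase inhibitor, stood at -3.04 in Rbp2-/- and -2.32 in Rbp2f/f, and Kdm3a, an oxygen-dependent histone demethylase, at -1.14 in Rbp2-/- and -0.89 in Rbp2f/f, both falling in each genotype. Of 11 tested genes of the integrated stress response, a pathway that can also induce Ddit4, 1 rose and 2 fell in Rbp2-/- and 1 rose and 3 fell in Rbp2f/f. Trib3 was among those that fell in both. Between genotypes without LIF the 3 lists had medians of -0.03, 0.01 and 0.17, with 0 genes called in limma. For the difference of the 2 withdrawal effects their medians were -0.08, -0.25 and 0.53, again with 0 called, beside 0.37 for the members.

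Of 68 member probe sets above their own filter, 10 were called higher and 2 lower on withdrawal in Rbp2-/-, against 3.75% and 4.09% of all probe sets, and 7 higher and 5 lower in Rbp2f/f, against 7.93% and 7.49%. Probe sets of 1 gene share its transcript and are not separate evidence. Between genotypes 0 of 68 were called in limma, where 0.00370% of all probe sets were higher and 0.00739% lower with LIF and 0% were called without LIF. Of 17 members with several probe sets above the filter, 12 had all of them with the same sign in the genotype difference without LIF, and 13 in each withdrawal contrast. Egln3, Aldoa and P4ha1 ran 1 way on all their probe sets without LIF. Slc2a1 and Hif1a did not, and neither did Pdk1, where 2 of 3 probe sets were positive and the other was at -0.09. Eno2 and Car9, both HIF targets in many cells, were under the filter of 28.3. Car9, a carbonic anhydrase used as a marker of low oxygen, read 25.3 and 26.2 in Rbp2-/- without LIF, 18.4 and 9.3 in Rbp2f/f cells lacking LIF, 22 and 25.2 in Rbp2-/- cells given LIF, and 19.2 and 20.8 in Rbp2f/f cells given LIF. Eno2, the neuronal enolase, read 34.2 and 23.6 in Rbp2-/- without LIF, 17.4 and 28.2 in Rbp2f/f cells lacking LIF, 14.1 and 11.8 in Rbp2-/- cells given LIF, and 7.4 and 15.8 in Rbp2f/f cells given LIF. Adm, the vasodilator adrenomedullin, was just inside the filter with a mean of 28.7. Such dim values limit what the arrays can show for these genes.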

How the data were processed

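The authors deposited 1 linear intensity per probe set and array, for 45101 probe sets. How these were summarised, background-corrected and scaled is not given in the sources used here. Per the labels' protocols, biotin-labelled cRNA was made from total RNA purified on columns.

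Because 1 array was dim, intensities were quantile-normalized over the 8 arrays and taken as log2(value + 16), a scale that understates changes of dim genes. Symbols came from the platform's annotation, with 34958 probe sets having 1 symbol, 932 several and 9211 none. Each gene was represented by its brightest probe set by mean. Genes at or above the 40th percentile, 10916 of 18194, were tested with limma 3.58.1 in R 4.3.3 (4 group means over 8 arrays, eBayes with a trend, 4 residual and 5.3 prior degrees of freedom). P-values were two-sided, adjusted by Benjamini-Hochberg over all genes of a contrast, and called under 0.05. Simulated data with known changes were used to check the fit. Errors are standard errors of log2 differences, and the number of arrays limits precision.

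Named genes are the members, Kdm5a and up to 4 called genes a list and contrast. Nanog, Tbx3, Thy1 and Krt8 were named outside that rule. Col1a1, Thy1, Krt8, Krt18 and Hand1 were chosen after their values were seen. Members and lists were chosen with earlier results of these data known. Alternatives covered scaling, pseudocount, filter, variance model, array weights, probe sets, threshold, replicate block and each array left out. Replicate numbers are shared by the groups, and the labels tie them to no common culture or day.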

Additional observations from a re-analysis of the deposited data

How the results depend on the processing

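No called difference of a member changed sign under the 19 alternatives, but member medians did: on withdrawal in Rbp2f/f (main -0.13) without either replicate 2 of Rbp2f/f, and for genotype with LIF (main -0.07) without either replicate 2 with LIF. Of member calls, those of Slc2a1 in both genotypes and of Pdk1 in Rbp2f/f held in all 19 alternatives. On the values as deposited, all-gene medians moved to -0.28 for genotype with LIF, 0.39 for withdrawal in Rbp2-/- and 0.31 for the difference of withdrawals, and member medians to -0.36, 0.52 and 0.70, with 13 members called on withdrawal in Rbp2-/-. That setting keeps the dim array at its level. Over all genes, the calls higher and lower on withdrawal were 795 and 900 in Rbp2-/- and 1532 and 1436 in Rbp2f/f. As deposited they were 2149 and 363 in Rbp2-/- and 1465 and 761 in Rbp2f/f, and after median centring 1325 and 1881 in Rbp2f/f, where the all-gene median was -0.10. Between genotypes 28 genes with LIF and 3 without LIF were called as deposited, none of them a member. At a threshold of 0.01, 1 member was called on withdrawal in Rbp2-/- and 3 in Rbp2f/f. Over all 10916 genes that threshold gave 225 higher and 395 lower in Rbp2-/- and 629 higher and 606 lower in Rbp2f/f. The mean over probe sets gave a member median of 0.38 on withdrawal in Rbp2-/-. Array weights gave 2 members called between genotypes without LIF, and 98 genes higher and 127 lower over all genes, against 0 in the unweighted fit. Leaving out single arrays gave member medians of 0.13 to 0.51 between genotypes without LIF. On withdrawal they were 0.15 to 0.41 in Rbp2-/- and -0.15 to 0.05 in Rbp2f/f. The median difference of withdrawals ran between 0.19 and 0.47 and that of genotype with LIF between -0.20 and 0.04. The causes were not tested. With the replicate block, members called were 0 between genotypes with or without LIF, 8 on withdrawal in Rbp2-/- (P4ha2 added), 7 in Rbp2f/f (P4ha1 added) and 0 in the difference. Over all genes the block gave 30 calls between genotypes without LIF and 3 with LIF. On withdrawal it gave 918 higher and 1000 lower in Rbp2-/-, and 1674 higher and 1584 lower in Rbp2f/f. Deviations of same-numbered arrays correlated at 0.25 to 0.27 among Rbp2-/- with LIF, Rbp2-/- without LIF and Rbp2f/f without LIF. With Rbp2f/f with LIF they correlated at -0.07 to -0.001. The labels name no common culture or day, so the main fit did not pair the arrays. What the same-numbered arrays share was not tested. With 2 arrays a group, precision is limited throughout, and Eno2, Car9 and Adm lie near the dim end.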
